A study of Homo sapiens with 23 samples.

Results

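The regions described here carried LSD1 at day 0 of BDNF treatment in both cell populations tested, control cells and LSD1+8a knockdown cells, and appeared in none of the 3 peak lists of day 3. Peaks of 5 lists were merged wherever they shared at least 1 bp, which gave 32188 regions. Regions with a peak from both day 0 LSD1 lists, and none from the day 3 lists of LSD1, LSD1+8a and SVIL, numbered 2774, or 8.62% of all regions. They made up 39.2% (exact 95% binomial interval 38.1 to 40.4) of the 7070 regions listed for LSD1 in both day 0 libraries. The regions were chosen by the measured peak calls of these 5 lists, so their presence at day 0 and absence at day 3 are a description and not a finding. The percentages 8.62% and 39.2% are therefore the background of the rule, and nothing is read from them.

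LSD1 (KDM1A) is a histone lysine demethylase that is best known for removing methyl groups from lysine 4 of histone H3 as part of a corepressor complex with CoREST and histone deacetylases. In neurons, alternative splicing can add the short exon 8a, which yields the isoform LSD1+8a, and the title of the series links this isoform to demethylation of lysine 9. SVIL (supervillin) is an actin-binding protein that the series names as its cofactor. A ChIP-seq peak marks where fragments bound by an antibody pile up over the background, and a tag is a read counted in that peak.

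All cells were SH-SY5Y, an established line from a human neuroblastoma, used because retinoic acid and BDNF drive it towards a neuron-like state. Per the protocols in the labels, 10 µM retinoic acid was given for 4 days, followed by 50 ng/mL BDNF without serum for 3 days. Control cells carried a control shRNA, and knockdown cells an shRNA against LSD1+8a. The day 0 libraries are LSD1 in control cells at day 0 (label B0) and LSD1 in knockdown cells at day 0, both made with the same commercial LSD1 antibody. The day 3 libraries are LSD1, LSD1+8a and SVIL, each in control cells (label B3), so no day 3 list of knockdown cells was used here. LSD1+8a was precipitated with an antibody made by the authors. Each group is 1 library, so no test between conditions was possible and no difference could be checked on replicates. All intervals cover counting error only. The reach of the knockdown, and any binding of LSD1+8a by the LSD1 antibody, were not analysed here. Positions are in hg19 and carry no gene names or sequences, because neither a genome nor an annotation of hg19 was at hand.

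The lists held 16882 peaks for LSD1 in control cells and 10248 in knockdown cells at day 0, and 20748 for LSD1, 3378 for LSD1+8a and 1452 for SVIL at day 3. Tags inside peaks summed to 539449, 346367, 1266603, 149464 and 35701 in the same order. The day 3 LSD1 list was thus the longest and had the most tags in its peaks, and the number of reads per library is unknown. Day and any library batch cannot be told apart here. The titles of both day 0 libraries end in an S and a number, and those of the 3 day 3 libraries do not. Other day 3 titles of the series have such an ending, and its meaning is not stated in the titles.

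The regions were compact and nearly always simple. In 2741 of the 2774 (98.8%) there was 1 peak in each day 0 list, in 18 there were 2 control peaks and 1 knockdown peak, in 14 it was 1 and 2, and in 1 region it was 2 and 2. Merged spans ran from 324 to 3050 bp with a median of 999 bp, and all spans together covered 2.93 Mb. The overlap of the best-scoring control and knockdown peaks filled a median of 75.8% of the merged span. The control peak was the longer of the pair in 66.3% (64.5 to 68.1) of the regions. These regions took up 2793 control peaks, 16.5% of that list, and 2789 knockdown peaks, 27.2% of that list. Of all 7070 regions in both day 0 lists, 3693 (52.2%) had a day 3 LSD1 peak, and 603 (8.53%) had no LSD1 peak at day 3 but did have one of LSD1+8a or SVIL. In 517 of these 603 only LSD1+8a was added, in 63 only SVIL, and in 23 both.

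Median tag numbers were equal in both libraries, without any scaling for their unknown depth. The tags were counted over peaks of unequal length, with medians of 908 bp in control and 814 bp in knockdown cells. A peak of these regions held a median of 33 tags in control cells (lowest 9, quartiles 24 and 46, highest 160). In knockdown cells the median was also 33 tags (lowest 10, quartiles 24 and 46, highest 152). Both medians lay above those of the whole lists, which were 26 tags in control and 28 in knockdown cells. Median fold enrichment, the authors' ratio of a peak over their background, was 9.99 in control and 9.63 in knockdown cells, beside 9.30 and 9.13 for all peaks. The regions thus held more tags than the typical peak of either list, but the rule asks for a peak in both lists. The deposited score, which ranks peaks within a list, placed the best peak of each region at a median percentile of 65.4 in the control list and 61.5 in the knockdown list. Over all 7070 regions of both day 0 lists, the best peaks had medians of 37 control and 34 knockdown tags, at percentiles 71.6 and 61.7. The regions without a day 3 peak thus stood below that background in the control list and close to it in the knockdown list.

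Regions found in 1 day 0 list alone were weaker, but they are not a like background, since the rule asks for a peak in both lists. The 4788 regions of the control day 0 list alone had a median of 18 tags at percentile 29.6, and the 2012 of the knockdown list alone had 17 tags at percentile 26.8. The 2498 regions in both day 0 lists and in the LSD1 list of day 3, but in neither of the other lists, are the most similar class. Their peaks had a median of 36 tags in control cells and 30 in knockdown cells, at percentiles 71.4 and 54. They thus stood higher than the day 0 regions in the control list and lower in the knockdown list.

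**Figure D1:**
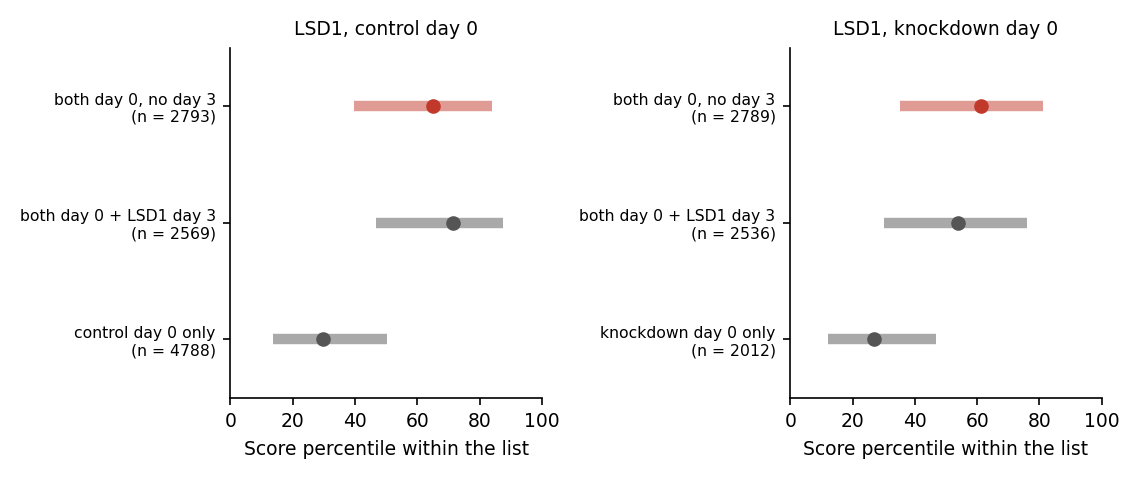
Score percentile of peaks within the control (left) and knockdown (right) day 0 LSD1 lists, by class of region; points are medians and bars run from the lower to the upper quartile, and n counts peaks. Peaks of regions in both day 0 lists and no day 3 list had medians of 65.1 and 61.3, above those of regions in 1 list alone at 29.6 and 26.8.

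The class spans the whole range of strength. Of the 2774 regions, 438 (15.8%) had a control peak in the top 10% of that list, 343 (12.4%) had a knockdown peak in the top 10% of its list, and 209 (7.53%, 6.58 to 8.58) had both. In 523 regions (18.9%) both peaks were in the lower 50% of their lists, and in 395 (14.2%) at least 1 best score was under 55, close to the lowest score of 50.0 in either list. When the 7070 regions of both day 0 lists were ordered by the weaker of their 2 percentiles and split into 10 bins of 707 regions, those without any day 3 peak made up 42.4% (38.8 to 46.2) of the weakest bin. The share lay between 41.6% and 42.9% in the 5 weakest bins and between 36.5% and 39.7% in the next 4. In the strongest bin it was 30.6% (27.2 to 34.1), or 216 regions. The share with a day 3 LSD1 peak was between 49.2% and 52.8% in the 9 weaker bins and 59.4% (55.7 to 63.1) in the strongest. Among the 100 strongest regions 23 lacked any day 3 peak, and among the 20 strongest only 1 did. Regions with LSD1+8a or SVIL but no LSD1 at day 3 numbered 37 to 56 in the 5 weakest bins and 59 to 85 in the 5 strongest. Regions without a day 3 peak were thus found at every strength and made up a smaller share of the strongest bin. Strength here comes from the lists that the rule used, so this is a description. Where a day 3 LSD1 peak was present, its median score percentile at day 3 was 65.9 in the weakest bin and 80.1 in the strongest.

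**Figure D2:**
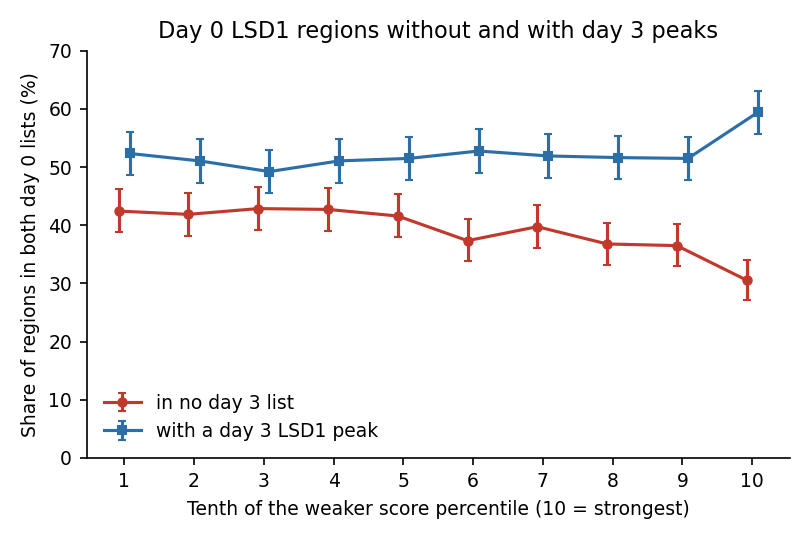
Share of the 7070 regions in both day 0 LSD1 lists that had no peak in any day 3 list (circles) or had a day 3 LSD1 peak (squares), in 10 equal bins of the weaker of the 2 day 0 score percentiles; bars are exact 95% binomial intervals. The circles go from 42.4% in the weakest bin to 30.6% in the strongest.

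The 20 regions with the best weaker percentile lay on 13 chromosomes. They held 63 to 144 tags in control cells (median 87.5) and 74 to 152 in knockdown cells (median 92.5). The first was on chromosome 20 (40321124 to 40322637), with 141 control tags at a fold enrichment of 39.97 and 128 knockdown tags at 41.3, and it ranked 31 and 21 in the lists. It is the only region without a day 3 peak among the 20 strongest of both day 0 lists, and the nearest day 3 LSD1 peak was 54919 bp away. The second, on chromosome 17 (7232259 to 7233426), had 114 control and 142 knockdown tags. The third, on chromosome 11 (33060570 to 33061520), had 88 and 93. A pair on chromosome 14 followed, at 69657786 to 69658915 with 82 and 91 tags, and at 102771077 to 102771851 with 80 and 92. All 5 had summits at most 40 bp apart in the control and knockdown libraries.

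Chromosome 1 had 3 of the 20. The region at 43613035 to 43614071 had the highest control fold enrichment of the whole class, 94.7 on 108 tags and rank 16, against 33.7 on 101 tags and rank 89 in knockdown cells. Its tag numbers were thus close, and its fold enrichments were not. The region at 249119745 to 249121198 had 114 and 100 tags, and that at 151682455 to 151683285 had 86 and 92. On chromosome 19, the region at 19774184 to 19775108 showed the same kind of gap, with a fold enrichment of 89.9 on 87 control tags and 44.9 on 75 knockdown tags. The region at 59083484 to 59085423, near the end of chromosome 19, had the most knockdown tags of the class, 152, and 144 control tags. Its fold enrichments were low for such tag numbers, 14.3 and 12.7, and it lay 1083 bp from a day 3 LSD1 peak. Only 1 other of the 20 had a day 3 LSD1 peak within 10 kb, that on chromosome 6 (33290312 to 33291739, 88 and 109 tags) at 4091 bp.

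The others of the 20 were on chromosomes 3, 4, 11, 12, 15, 16, 20 and 21. Those on chromosome 15 (52263401 to 52264465) and chromosome 4 (109541131 to 109542129) had 103 and 91 control tags and 94 and 89 knockdown tags. The region on chromosome 3 (184055994 to 184057054) had 87 and 108, and that on chromosome 16 (759205 to 760318) had 85 and 110. The region on chromosome 12 (30847653 to 30849332) had 92 and 79 and was the farthest from a day 3 LSD1 peak, at 279124 bp. Outside the 20, the most control tags were at chromosome 1 (183439870 to 183442189), with 160 in control and 144 in knockdown cells. The region on chromosome 7 (22861904 to 22862939) had 93 control and 144 knockdown tags, and its rank moved from 289 in the control list to 17 in the knockdown list, the best score of the class there. The highest knockdown fold enrichment, 58.03 on 67 tags, was at chromosome 19 (46295794 to 46296592), where control cells had 23.5 on 54 tags. The longest span was on chromosome 17 (46100510 to 46103559), 3050 bp with 124 and 77 tags.

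Tag numbers in control and knockdown cells were next compared region by region. The libraries differ in unknown depth, so each ratio of knockdown to control tags was divided by 0.938, the median ratio over all 7070 regions of both day 0 lists. On this scale the regions without a day 3 peak had a median log2 ratio of 0.09 (quartiles -0.21 and 0.36). The 2498 regions with LSD1 at day 3 only had -0.14 (-0.47 and 0.18). The 2 ranges overlap widely. Without the scaling, the median ratio of knockdown to control tags was 1 and 0.85 in these classes. The scaling divides all ratios by the same number, so it cannot change their order. The sign of the first median log2 ratio does rest on the scaling. Knockdown tags were at least 1.5 times the control tags, after scaling, in 326 of the 2774 regions (11.8%, 10.6 to 13), beside 8.77% of all regions of both day 0 lists and 5.60% (4.73 to 6.58) of those with LSD1 at day 3 only. Control tags were at least 1.5 times the knockdown tags in 211 (7.61%, 6.65 to 8.66), beside 12.2% of all and 19.1% (17.6 to 20.7) of those with LSD1 at day 3 only. All these ratios come from the libraries that the rule used, so they describe the class and support nothing. The day 3 list that separates the classes is also from control cells, and its part in the difference was not tested.

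The ratio was also compared at like strength and per peak length. Within 10 bins of the mean of both percentiles, the median log2 ratio of the regions without a day 3 peak was the higher in 10 of 10 bins. It ranged there from 0.03 to 0.17, and that of the regions with LSD1 at day 3 only from -0.25 to 0.07. Counted per kb of peak, the medians came to 0.05 and -0.05, which is closer together and of the same signs. This alternative was chosen after the data were seen. The 517 regions in both day 0 lists with LSD1+8a at day 3, but neither LSD1 nor SVIL, had a median of 0.15 with 40 tags in each library. Both of these classes without day 3 LSD1 had a median above the overall median. That median was taken over the same 7070 regions, so classes that differ tend to fall on either side of it. These ratios also come from the lists that the rule used. They describe the classes only, and no test of this was made.

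**Figure D3:**
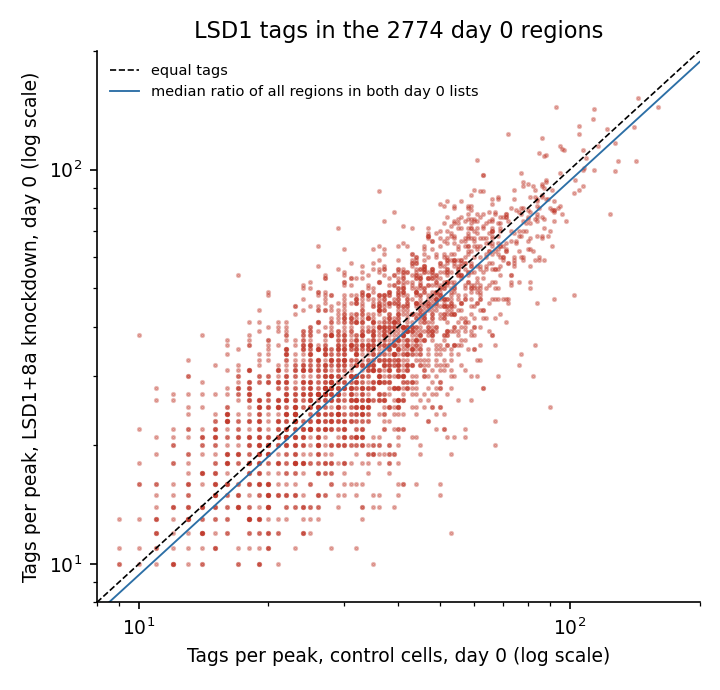
Tags per best-scoring peak in control (x) and LSD1+8a knockdown cells (y) at day 0, both on log scales, for each of the 2774 regions (points). The dashed line marks equal tags, and the solid line the median ratio of 0.938 over all regions of both day 0 lists. The points scatter around both lines with a median of 33 tags on either axis.

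Across the 2774 regions, log tag numbers in both libraries had a Pearson r of 0.77 and a Spearman rho of 0.75. For fold enrichment these were 0.53 and 0.46, and for peak length 0.56 and 0.54. Regions are not independent replicates, and each coefficient compares the same 2 libraries. Tags were thus more alike between the libraries than the folds. Among the 1256 regions with at least 40 tags in 1 library, those with the most unequal scaled tags were picked after their values were seen. The region on chromosome 6 (35698948 to 35700483) had 17 control and 54 knockdown tags, a scaled ratio of 3.39, although its fold enrichment was 9.59 in control and 8.22 in knockdown cells. The region on chromosome 13 (24553605 to 24554900) had 26 and 64 tags with folds of 13.1 and 21.1. In the other direction, chromosome 3 (113464639 to 113466322) had 53 control and 12 knockdown tags, with folds of 9.99 and 9.53. Chromosome 7 (145812450 to 145814526) had 90 and 25, with summits 1140 bp apart. None of the 20 strongest regions reached a scaled ratio of 1.5 in either direction.

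The position of the summit, the point of highest pile-up in a peak, was not used by the rule. In the 2774 regions the control and knockdown summits lay a median of 45.5 bp apart (quartiles 18 and 101 bp, largest distance 1528 bp). They fell within 50 bp of each other in 1485 regions (53.5%, 51.7 to 55.4) and within 100 bp in 2079 (74.9%, 73.3 to 76.5). Over all 7070 regions of both day 0 lists the median was 49 bp, with 51.3% (50.2 to 52.5) within 50 bp and 72.3% (71.3 to 73.4) within 100 bp, which is close to these values. In the 2498 regions with LSD1 at day 3 only, the median was 55 bp, and 47.1% (45.1 to 49.1) were within 50 bp. Beside that class, the regions without a day 3 peak had the closer summits in 10 of 10 bins of mean percentile. Counted from the weakest, the medians were 56.5 against 81 bp in bin 2, but 30.5 against 31.5 bp in bin 9. Whether part of this difference comes from the merging was not tested. With a day 3 peak, a control and a knockdown peak that do not touch can be joined, and the largest distance there was 2954 bp. Stronger regions were the more exactly placed. In the 209 in the top 10% of both lists the median was 19 bp and 81.8% (75.9 to 86.8) were within 50 bp. In the 523 in the lower 50% of both lists the median was 66 bp and 42.1% (37.8 to 46.4) were within 50 bp. Chromatin was sheared to 300 to 800 bp, so the median and the upper quartile of these distances are below the fragment length. In 96 regions (3.46%) the summits were over 500 bp apart.

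**Figure D4:**
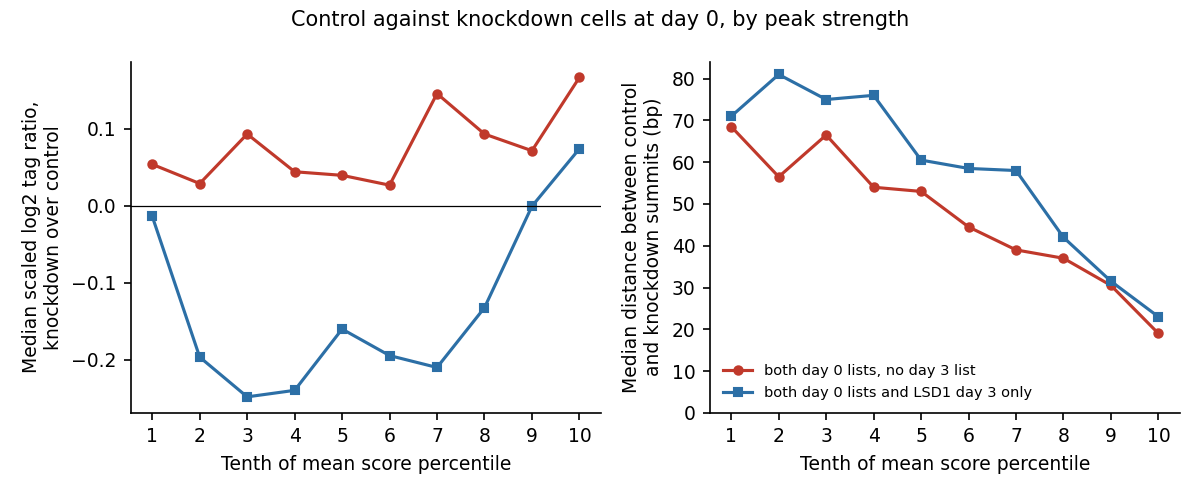
Median scaled log2 ratio of knockdown to control tags (left) and median distance between control and knockdown summits in bp (right), in 10 bins of the mean day 0 score percentile, for regions without any day 3 peak (circles) and with LSD1 at day 3 only (squares). The circles lie above the squares in 10 of 10 bins on the left and below them in 10 of 10 on the right.

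The rule places every region at least 1 bp from a day 3 peak, and the distances were not set beside those of random positions. The nearest day 3 LSD1 peak was a median of 45.0 kb away, edge to edge. It lay within 1 kb for 68 regions (2.45%, 1.91 to 3.10), within 10 kb for 433 (15.6%, 14.3 to 17) and within 100 kb for 2129 (76.7%, 75.1 to 78.3). Regions of the control day 0 list alone were closer, with 5.62% (4.98 to 6.31) within 1 kb and a median of 34.5 kb. Those of the knockdown list alone had 4.22% (3.39 to 5.20) within 1 kb and a median of 40.6 kb. The nearest LSD1+8a peak was within 10 kb for 4.51% (3.76 to 5.35) and the nearest SVIL peak for 1.51% (1.09 to 2.04). For the regions with LSD1 at day 3 only these shares were 5.56% (4.70 to 6.54) and 3.56% (2.87 to 4.37). For LSD1+8a the intervals overlap at 10 kb, and the shares within 1 kb were 0.577% and 0.560%. Within 100 kb they were 38.1% (36.3 to 40) of the regions without a day 3 peak and 33.9% (32 to 35.8) of those with LSD1. Within 10 kb, regions of the control day 0 list alone had shares of 4.34% for LSD1+8a and 1.71% for SVIL. Those of the knockdown list alone had 3.88% and 1.34%. The SVIL share of the regions without a day 3 peak was thus like that of both single-list classes.

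Just inside the rule, the 5 nearest regions had an edge 4 to 38 bp from a day 3 LSD1 peak. They are on chromosome 1 (173445736 to 173447015, 43 control and 25 knockdown tags), chromosome 16 (22308190 to 22309254, 25 and 36), chromosome 1 (24126952 to 24127938, 32 and 25), chromosome 1 (155036615 to 155037488, 34 and 18) and chromosome 10 (89966551 to 89967451, 24 and 12). Just outside were regions on chromosome 1 (21112920 to 21114561), where the day 0 and day 3 peaks shared 3 bp, and on chromosome 20 (35806300 to 35808121), where they shared 8 bp. Their day 0 tags were 17 and 14, and 35 and 19, in control and knockdown cells. The day 3 peaks there had 31 and 32 tags at score percentiles of 25.4 and 5.29 of the day 3 list. Few of the 2774 regions were that close to the limit of the rule.

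The surroundings of the regions were described by the number of other peaks within 100 kb of the control summit. The 2774 regions had a mean of 2.56 other control day 0 peaks there, and the 2498 with LSD1 at day 3 only had 2.55. The mean number of other day 3 LSD1 peaks was 1.91 for the regions without a day 3 peak and 2.77 for those with LSD1 at day 3. It was 2.23 around regions of the control day 0 list alone and 2.02 around knockdown summits of the knockdown list alone. No other day 3 LSD1 peak lay within 100 kb of 654 regions (23.6%), against 15% of those with LSD1 at day 3. This share was 19.7% for the control list alone and 22.6% for the knockdown list alone, which is close to 23.6%. Beside the regions with LSD1 at day 3, neighbouring knockdown day 0 peaks went the other way, with a mean of 1.88 against 1.57. So did LSD1+8a peaks, with 0.543 against 0.474. The mean number of SVIL peaks was 0.175 against 0.231, and 0.193 and 0.148 for the control and knockdown lists alone. Neighbouring regions are not independent, and no test of these means was made.

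The regions were found on all 22 autosomes and on X, and none was found on Y. Chromosome 19, the most gene-dense human chromosome, held 267 of them, 9.63% (8.55 to 10.8), beside 5.80% (4.92 to 6.79) of the regions with LSD1 at day 3 only, 4.99% of those of the control day 0 list alone, 6.51% of those of the knockdown list alone and 3.75% of all regions. This is 4.52 regions per Mb, against 1.88 on chromosome 17, 1.35 on chromosome 20, 1.15 on chromosome 1 and 0.369 on X. Chromosome 19 held 542 of the 7070 regions of both day 0 lists, so a high share there was also found in that larger set. Of the 542 regions, 49.3% (45.0 to 53.6) had no day 3 peak, beside 39.2% over all chromosomes. The share was 55.3% (45.2 to 65.1) of 103 on X, 51.4% (41.6 to 61.1) of 109 on chromosome 22 and 49.4% (41.7 to 57.1) of 172 on chromosome 20. Leaving out Y, which had 2 regions in both day 0 lists and none without a day 3 peak, it was lowest on chromosome 7, with 29% (25 to 33.3) of 486, and on chromosome 4, with 32.6% (27 to 38.6) of 264.

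Set beside the regions with LSD1 at day 3 only, the interval of the share lay entirely higher on 3 of 23 chromosomes, which were 19, 22 and X. It lay entirely lower on 3, which were 4, 5 and 7. X held 57 regions (2.05%, 1.56 to 2.65) against 0.761% (0.459 to 1.19), and chromosome 22 held 56 (2.02%, 1.53 to 2.61) against 1.00% (0.649 to 1.47). The regions of the knockdown list alone had higher shares on both. X held 2.07% of the regions of the control day 0 list alone, 3.63% of those of the knockdown list alone and 1.56% of all regions, and chromosome 22 held 1.55%, 2.44% and 1.38%. Chromosome 7 held 141 (5.08%, 4.30 to 5.97) against 7.61% (6.60 to 8.72), chromosome 5 held 115 (4.15%) against 5.96%, and chromosome 4 held 86 (3.10%) against 4.72%. Among the regions without a day 3 peak, the share on chromosome 19 was higher in strong regions. The other classes were not split in this way, and strength here comes from the lists that the rule used. Chromosome 19 held 33 of the 209 regions in the top 10% of both lists (15.8%, 11.1 to 21.5) and 32 of the 523 in the lower 50% of both (6.12%, 4.22 to 8.53).

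**Figure D5:**
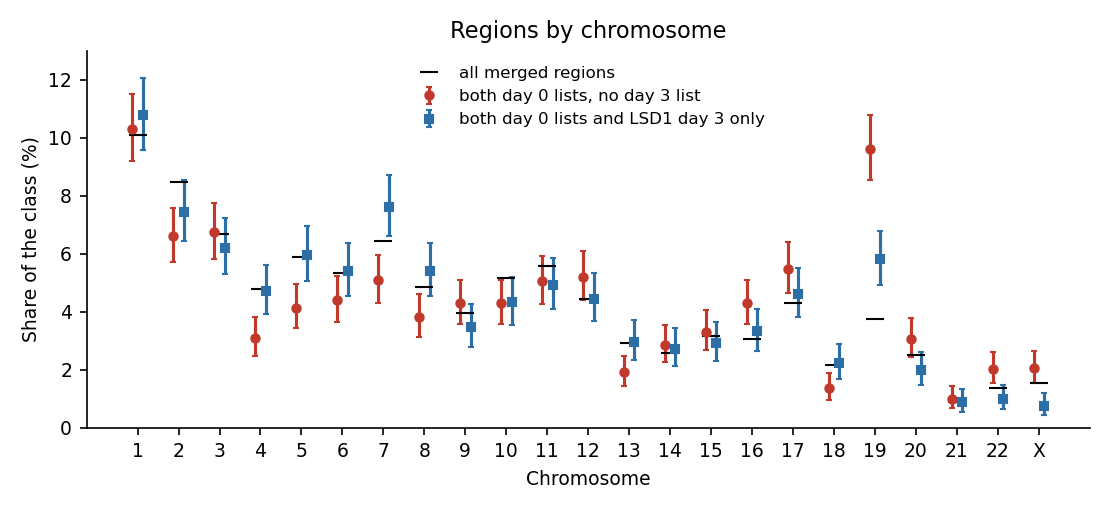
Share of regions on each chromosome among those in both day 0 LSD1 lists and no day 3 list (circles), among those in both day 0 lists and the day 3 LSD1 list only (squares), and among all merged regions (dashes); bars are exact 95% binomial intervals. The circles stand above the squares with separate intervals on 19, 22 and X, and below them on 4, 5 and 7.

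The 267 regions of chromosome 19 had a median of 34 tags in each library, and a range of 13 to 144 in control and 11 to 152 in knockdown cells. The 2507 regions of the other chromosomes had medians of 33 and 32. The nearest day 3 LSD1 peak was a median of 33.7 kb away on chromosome 19 and 46.3 kb elsewhere. The 57 regions of X were smaller, with medians of 27 and 26 tags, and lay a median of 167 kb from a day 3 LSD1 peak. Tag numbers on chromosome 19 were thus close to those elsewhere. Its median score percentiles were higher, at 69.4 in control and 66.6 in knockdown cells, against 64.4 and 60.8 elsewhere. Among the regions without a day 3 peak, those of X were smaller and farther from day 3 LSD1 peaks. Other classes of region on X were not measured in this way.

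In windows of 1 Mb, 1326 windows held at least 1 of the regions, 672 held exactly 1 and 109 held 5 or more. The highest number was 13, in a window on chromosome 19 (50 to 51 Mb) and another on chromosome 9 (131 to 132 Mb), each with an exact Poisson interval of 6.92 to 22.2. The chromosome 9 window had 15 regions in both day 0 lists, so that 13 of 15 (86.7%, 59.5 to 98.3) had no day 3 peak. Over all chromosomes this share was 39.2%. The windows were picked by their number of such regions, which raises the share, and the intervals do not cover that choice. Among windows with 10 of the regions, it ran from 40% (chromosome 19, 58 to 59 Mb) to 90.9% (chromosome 3, 9 to 10 Mb). It held 19 control and 20 knockdown peaks of LSD1 at day 0, and 8 LSD1, 2 LSD1+8a and no SVIL peaks at day 3. Its 13 regions had 22 to 66 control tags (median 33) and 16 to 52 knockdown tags (median 28). The best ranked in control cells, at 131084437 to 131085605, had 66 tags at a fold of 25.8 there and 52 tags at a fold of 6.66 in knockdown cells. The region at 131038032 to 131038941 had 34 and 36 tags, with folds of 13.7 and 22.1.

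The chromosome 19 window from 50 to 51 Mb had 20 regions in both day 0 lists, of which 13 (65.0%, 40.8 to 84.6) had no day 3 peak. It held 28 control and 25 knockdown LSD1 peaks at day 0 and 9 LSD1 peaks at day 3. Control tags of the 13 ran from 13 to 67 (median 39) and knockdown tags from 19 to 51 (median 36). The summits of these 13 were less exactly shared than in the class as a whole, with a median distance of 200 bp. They include the largest distance of the class, 1528 bp at 50192974 to 50195184, where a control peak of 2211 bp and 67 tags met a knockdown peak of 1211 bp and 36 tags. Next came the windows from 4 to 5 Mb and from 46 to 47 Mb of chromosome 19, each with 11 regions (5.49 to 19.7). The first had 16 regions in both day 0 lists and the second had 15. In the first, the region at 4457520 to 4458380 had 69 control and 73 knockdown tags with summits at the same base. In the second, the region at 46220166 to 46221266 had 66 and 65 tags, with folds of 20.5 and 53.4, and that at 46849711 to 46851001 had 76 and 70, with folds of 23.1 and 12.1.

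Windows with at least 8 regions in both day 0 lists numbered 177, and were compared by share after the data were seen. The highest share was on chromosome 3 (9 to 10 Mb), where 10 of 11 regions (90.9%, 58.7 to 99.8) had no day 3 peak. That window held 14 control and 12 knockdown peaks at day 0, 5 LSD1 peaks at day 3, and none of LSD1+8a or SVIL. At the other end, all 11 such regions on chromosome 8 (80 to 81 Mb) and all 8 on chromosome 11 (72 to 73 Mb) had a peak in at least 1 day 3 list. On chromosome 16 (2 to 3 Mb) it was 17 of 18, which left 1 region without a day 3 peak, and that window held 13 LSD1 and 12 LSD1+8a peaks at day 3. In none of the 177 windows were all regions without a day 3 peak. The regions themselves were spread out, with a median gap of 355 kb from one to the next and only 87 gaps (3.16%, 2.54 to 3.89) of at most 10 kb.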

How the data were processed

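Per the labels' protocols, chromatin was fixed in 1% formaldehyde for 10 minutes and sheared to 300 to 800 bp. After selection at 300 to 600 bp, sequencing gave single-end reads of 50 bp. The submitters' processing notes name CASAVA, Bowtie 1.0.0 and the builds hg19 and mm9. The lists hold human chromosomes, so hg19 was taken as their build. The caller, threshold and input of each list were not given in the sources used here. Of 23 samples (14 ChIP, 9 input), 5 have a list used here, deposited per library and not pooled.

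The deposited tags are raw counts per peak, per the file headers. The deposited fold enrichment is the authors' ratio over a background that the headers do not define. The deposited score lost its column name and was used for ranks within a list only. Counting tags is limited by unknown depth, and PCR copies are not independent molecules.

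Peaks were merged at an overlap of 1 bp, and the best-scoring peak of a list stood for a region. A percentile of 100 is the best score. Shares have exact (Clopper-Pearson) 95% intervals and counts exact Poisson ones. The members and lists were chosen with earlier results of these data known. Named regions are the 20 with the best weaker percentile, the 3 with most tags, span and fold, the 5 nearest either side of the rule, and the windows with most members. Merging was checked on simulated peaks. Alternatives changed the overlap, the threshold and the lists that exclude. Promoter, gene and motif analyses were not run, since no hg19 reference was used. Python 3.11.15, NumPy 2.4.6, pandas 2.3.3, SciPy 1.17.1 and matplotlib 3.10.9 were used.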

Additional observations from a re-analysis of the deposited data

How the results depend on the processing

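With 1 library per group, nothing could be left out as a replicate. No paired analysis was possible because each group has 1 library and no result comes from a test. The number of regions was between 1881 and 3377 under 7 of 8 alternatives, against 2774, and fell to 1270 when only the upper 50% of the day 0 lists was used. Not all of these could vary freely. Leaving out Y could not change the number, since none of the regions lies there. Exclusion by day 3 LSD1 alone could only raise it, to 3377. The alternative with reciprocal overlap gave 3047, which counts control day 0 peaks and not merged regions. Taking the best 10248 peaks of each LSD1 list gave 2830 regions, of which 2101 overlapped one of the 2774. The share among regions of both day 0 lists was 53.5% with the upper 50% of each list, 36.1% with the upper 50% of the day 0 lists only and 49.9% with equal numbers of peaks, against 39.2%. With the upper 50% of each list, the median percentiles were 83.2 in the control and 80.1 in the knockdown list, which the cut itself raises, and the chromosome 19 share was 11.1% against 9.63%. The median log2 ratio of knockdown to control tags was 0.0454 per kb of peak and 0.0995 without chromosome 19, against 0.0931, and -0.0469 per kb for regions with LSD1 at day 3 only. These ratios and the shares of 36.1% and 49.9% were chosen after seeing the data. Absence from a list of unknown depth does not show absence of binding, and a signal just under the authors' threshold at day 3 was not tested. The promoter and motif alternatives were not run.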
